A study of Mus musculus with 12 samples.

Results

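Of 12 cultures of mouse endothelial cells, 3 were chosen by the signal of Aldh1a1, a retinaldehyde dehydrogenase that makes retinoic acid. A culture was placed on the high side where the Aldh1a1 signal reached 1000 after every array had been scaled to a 2% trimmed mean of 500. The high side held 1 mock-transfected control (control 3) and 2 cultures with transmembrane TNF (tmTNF 2 and tmTNF 4), and the other 9 cultures formed the low side. All cells came from wildtype newborn mice and were grown in DMEM with 10% FCS. The 3 groups of 4 arrays were mock-transfected controls, cells carrying, by stable transfection, a murine TNFalpha mutant that cannot be cleaved from the membrane (tmTNF), and cells given soluble TNFalpha at 20 ng/ml for 4 h (sTNF). What drove the transgene, and whether the transfected cells were a clone or a pool, is not given in the sources used here. Replicates are numbered in accession order, so equal numbers in different groups pair nothing. The labels do not say that the replicates were separate cultures or animals, and the p-values below measure the spread between these samples only.

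Because the sides were selected on measured values of these arrays, differences between them are given as sizes without a test. A gene is called between the sides where its treatment-adjusted difference was at least 2 on the log2(signal + 16) scale and the high and low arrays did not overlap, in the same direction, both among the 4 controls and among the 4 tmTNF cultures. The sTNF cultures had no high member. They entered these calls only through the filter on low signals and the choice of each gene's brightest probe set. They also entered the spread behind the standard errors. Differences are high minus low, with the standard error (SE) of the fitted coefficient.

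Endothelial cells line vessels and are recognised by a shared set of genes. Transcription factors of the ETS and SOX families (Erg, Fli1, Sox17, Sox18) maintain that set. Its products include receptors for vascular growth factors (Kdr, Tek, Tie1, Flt4), junction proteins (Cdh5, Cldn5, Pecam1) and proteins of the capillary surface (Gpihbp1, Plvap, Emcn). Mesothelial cells, which cover the body cavities, share keratins with simple epithelia and make mesothelin (Msln). Fibroblasts make fibrillar collagens and decorin.

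The cultures with high Aldh1a1 had lower signals of much of the endothelial set and higher signals of Krt19, Lcn2, Msln and other genes not typical of vessels. Of 10567 genes tested, 157 were called higher (1.49%) and 249 were called lower (2.36%). Of the 53 measured genes of a list of endothelial identity genes, 31 were called lower and 0 higher, with a median difference of -2.41 against 0.00379 over all genes tested. These shares were set by the contrast that chose the cultures and nothing is read from them. Equalising the array medians in place of the trimmed means turned this split to 210 higher and 188 lower genes. In bulk RNA, fewer cells of a type and less RNA per cell cannot be told apart.

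Promoter sequence is shown for 6 genes on which the results below turn, 250 bases before a RefSeq start (GRCm38.p6), 5′ to 3′ in the direction of the gene. Capitals mark matches to 4 short motifs searched on both strands. The motif of the TATA box was TATAAA. The ETS core was searched as CAGGAA. Sites of SOX factors were searched as AACAAT. The AP-1 motif was TGACTCA. Aldh1a1 gave the rule and lies at chr19:20601718-20601967 on the plus strand, the second by position of 2 listed starts. Krt13, one of the genes most raised on the high side, lies at chr11:100120578-100120827 on the minus strand. Cldn5, among the genes most reduced there, is at chr16:18776597-18776846 on the plus strand. Erg, Tek and Emcn stand for the factors, receptors and surface proteins of the endothelial set, at chr16:95459349-95459598 (minus), chr4:94739039-94739288 (plus) and chr3:137340828-137341077 (plus).
Aldh1a1 promoter: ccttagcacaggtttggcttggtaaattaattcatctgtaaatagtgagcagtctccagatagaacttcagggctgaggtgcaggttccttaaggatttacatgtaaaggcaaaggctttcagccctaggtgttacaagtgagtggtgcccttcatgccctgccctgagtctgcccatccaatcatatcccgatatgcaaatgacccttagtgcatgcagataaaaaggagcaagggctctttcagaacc
Krt13 promoter: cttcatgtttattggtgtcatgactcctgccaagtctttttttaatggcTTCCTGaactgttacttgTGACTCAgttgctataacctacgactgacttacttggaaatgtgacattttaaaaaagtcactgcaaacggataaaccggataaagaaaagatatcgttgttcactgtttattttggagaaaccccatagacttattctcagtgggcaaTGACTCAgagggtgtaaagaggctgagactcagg
Cldn5 promoter: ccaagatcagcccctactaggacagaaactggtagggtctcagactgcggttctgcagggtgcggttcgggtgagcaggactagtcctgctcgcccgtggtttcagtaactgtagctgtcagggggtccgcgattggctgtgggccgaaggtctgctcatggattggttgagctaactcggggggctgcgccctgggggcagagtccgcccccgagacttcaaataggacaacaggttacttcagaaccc
Erg promoter: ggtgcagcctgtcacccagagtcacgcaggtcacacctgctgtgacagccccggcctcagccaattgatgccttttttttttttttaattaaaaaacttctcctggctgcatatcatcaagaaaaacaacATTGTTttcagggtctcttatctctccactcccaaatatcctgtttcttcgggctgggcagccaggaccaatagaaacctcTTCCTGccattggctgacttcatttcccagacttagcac
Tek promoter: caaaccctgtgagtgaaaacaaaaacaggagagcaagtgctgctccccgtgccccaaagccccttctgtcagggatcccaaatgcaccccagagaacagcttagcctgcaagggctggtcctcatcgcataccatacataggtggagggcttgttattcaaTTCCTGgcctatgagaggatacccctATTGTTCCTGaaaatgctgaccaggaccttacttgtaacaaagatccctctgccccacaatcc
Emcn promoter: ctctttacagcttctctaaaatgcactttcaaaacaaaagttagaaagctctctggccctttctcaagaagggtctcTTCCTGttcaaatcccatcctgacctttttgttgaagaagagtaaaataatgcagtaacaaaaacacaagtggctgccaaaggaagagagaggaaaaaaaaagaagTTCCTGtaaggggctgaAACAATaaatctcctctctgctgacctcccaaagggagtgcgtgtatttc
The printed Aldh1a1 and Cldn5 windows held none of the 4 motifs, while the window at the other Aldh1a1 start held an AP-1 match 57 bases before it. Erg has 3 listed starts and Krt13 has 2, of which 1 each is shown. The window at the other Krt13 start held none of the 4 motifs. Of the Erg windows not shown, 1 held a TATA match alone and 1 held none of the 4. The printed Krt13 window held 2 matches to the AP-1 motif, 183 and 34 bases before the start, and 1 to the ETS core. Tek and Emcn each held 2 matches to the ETS core and 1 to the SOX motif, and the Erg window held 1 of each. In Tek a SOX match and an ETS match share bases.

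Over all promoters of genes tested, 22.0% of 11056 windows held the ETS core, 5.17% the SOX motif, 3.36% the AP-1 motif and 6.44% the TATA motif. Among the endothelial identity genes, 27 of 53 had a window in the RefSeq table, and the ETS core was present in 18 of their 32 windows (56.2%). Among genes called lower as a whole the ETS share was 27.4% of 252 windows, and among genes called higher it was 26.1% of 157. The AP-1 motif was present in 10.8% of the windows of genes called higher and 5.16% of those of genes called lower. The TATA motif was present in 16.6% and 7.94%. The SOX motif was present in 5.10% and 6.75%. A match describes these letters only and shows no binding. Krt19, Msln, Sox18 and Gpihbp1 had no window in the table.

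The gene of the rule separated the arrays widely. The Aldh1a1 signal was 5067 in control 3, 3839.5 in tmTNF 2 and 4872 in tmTNF 4. It was 12.8, 1.31 and 4.22 in the other controls, 4.02 and 132 in the other tmTNF cultures and 27.9, 9.19, 2.71 and 67.3 in the sTNF cultures. No array lay between 132, the highest low value, and 3839.5, the lowest high value. With signals under 100 counted as 100, which stands in for the background limit because detection flags were not used, Aldh1a1 was at least 42.7-fold higher on the high side.

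Krt19, a keratin of simple epithelia and mesothelium, had signals of 7119.8 in control 3, 11494 in tmTNF 2 and 5564 in tmTNF 4. On the low side the Krt19 signal was 166, 217 and 249 in the other controls, 65.4 and 79.3 in the other tmTNF cultures and 3244, 397, 348 and 2801 in the sTNF cultures. Controls and tmTNF cultures did not overlap between the sides, but sTNF 1 and sTNF 4 stood at intermediate signals. The Krt19 difference was 5.86 ± 0.87 (SE), a 58.0-fold difference.

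Msln encodes mesothelin, a surface glycoprotein of mesothelial cells. Its signal was 3412 in control 3, 2460.4 in tmTNF 2 and 1288 in tmTNF 4, and 216, 53.5 and 91.6 in the other controls, 40.5 and 45.5 in the other tmTNF cultures and 938, 467, 24.3 and 1578 in the sTNF cultures. Again sTNF 1 and sTNF 4 were nearest to the high side, and sTNF 4 was above tmTNF 4. The Msln difference was 4.89 ± 1.15, which was 4.83 among controls and 4.93 among tmTNF cultures.

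Efemp1, a fibulin of the extracellular matrix, was dim even where it was highest. Its signal was 108 in control 3, 166 in tmTNF 2 and 165 in tmTNF 4, and 10.2, 15.1 and 0.753 in the other controls, 6.48 and 1.41 in the other tmTNF cultures and 11.7, 4.82, 3.31 and 31.5 in the sTNF cultures. With signals under 100 counted as 100, the Efemp1 difference was at least 1.38-fold. Slpi, a secreted inhibitor of leukocyte proteases, did not separate the sides. The Slpi signal was 298 in control 3, 1125 in tmTNF 2 and 4849.7 in tmTNF 4, and 173, 32.9 and 592 in the other controls, 70.0 and 439 in the other tmTNF cultures and 213, 59.0, 84.8 and 623 in the sTNF cultures. Control 4 was above the high control, so Slpi was not called (0.82 among controls and 3.57 among tmTNF cultures).

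**Figure D1:**
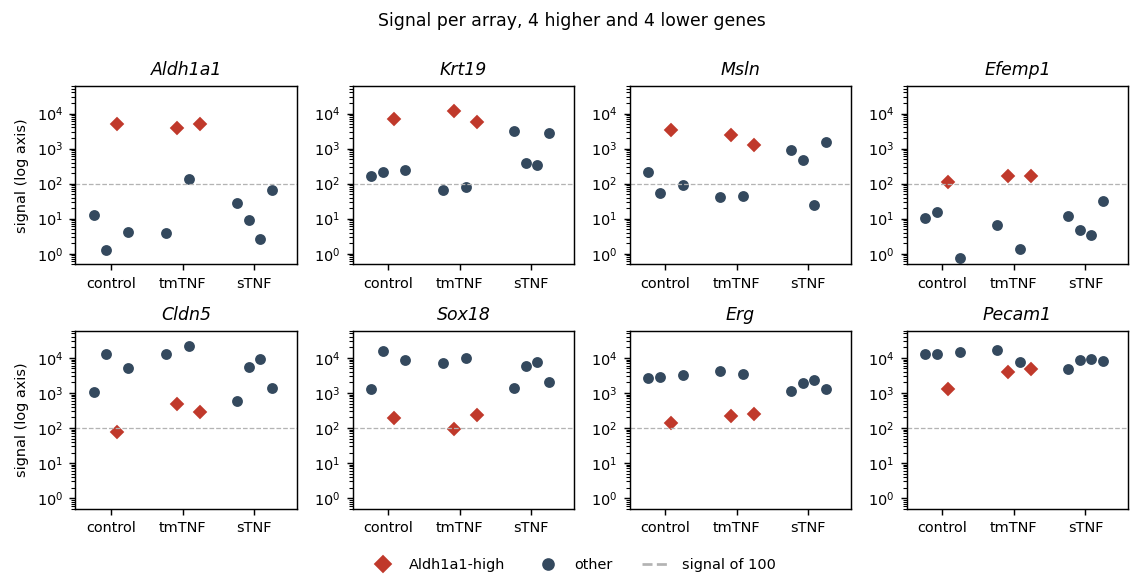
Signal per array on a log axis for 4 genes higher and 4 genes lower in the Aldh1a1-high cultures, grouped by treatment, with 1 point per array and a dashed line at a signal of 100. Diamonds are the 3 Aldh1a1-high cultures; for Aldh1a1 they lie between 3839.5 and 5067, and all circles lie at or below 132.

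The 15 largest positive differences included genes of varied function. Lcn2, an iron-siderophore binding lipocalin, had signals of 28091 in control 3, 20700.0 in tmTNF 2 and 1516 in tmTNF 4, against 1239, 30.1 and 473 in the other controls, 28.6 and 1235 in the other tmTNF cultures and 29.7, 22.8, 4.42 and 74.3 in the sTNF cultures. Its difference was 5.41 ± 1.57, and tmTNF 4 was only slightly above tmTNF 3. Mt2, a metallothionein, differed by 4.88 ± 1.23 and Cp, the copper protein ceruloplasmin, by 4.42 ± 1.88. Xdh, the enzyme that makes uric acid, differed by 4.44 ± 1.76. Ltbp1, which binds latent TGF-beta, differed by 4.87 ± 0.78, and the cGMP-dependent kinase Prkg2 by 4.81 ± 1.67. The standard errors of Cp, Xdh, Prkg2 and Lcn2 were over 1.5, so the sizes of these 4 are loosely fixed.

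In 5 others of the 15 (Anxa8, Baiap2l1, Itih2, Akr1c12 and Amy1) every low-side control and tmTNF signal was under 100, and their folds are lower bounds. Anxa8, an annexin, was at least 12.5-fold higher, and Baiap2l1, which links membranes to actin, at least 8.13-fold. Itih2, a heavy chain of inter-alpha-trypsin inhibitor, was at least 7.93-fold higher. The aldo-keto reductase Akr1c12 was at least 7.54-fold and the amylase Amy1 at least 7.06-fold higher. Krt13, another keratin, was above 100 in control 4 and tmTNF 3 and differed by 4.33 ± 1.45 (2.23 among controls and 5.90 among tmTNF cultures). Of the 157 genes called higher, 34 had all low controls and tmTNF cultures under 100.

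Defining markers of mesothelium and epithelium other than Krt19 and Msln were near background. The Wt1 signal, a transcription factor of mesothelium, did not exceed 45.7 on any array, and that of Upk3b did not exceed 21.7. The signals of Krt8 and Krt18, the keratins usually paired in simple epithelia, were at most 113 and 75.1, and on the high arrays Krt8 was 27.8 to 64.8. E-cadherin (Cdh1) was at most 42.1. Epcam, an epithelial surface protein, was 67.0 in control 3, 189.6 in tmTNF 2 and 202 in tmTNF 4, and overlapped the low side among controls. The high cultures are therefore described by their leading genes and not as a named cell type.

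Of 30 genes on a mesothelial list, 9 were measured, of which Aldh1a1, Krt19, Msln and Efemp1 were called higher and Cldn15, a claudin, lower (-3.41 ± 0.60). The list's median was 2.39 and 0.60 with dim genes at their bound. It includes the 5 markers of the rule, of which 4 were called higher (median 4.89, or 4.89 at the bound), so it is no separate evidence. Podxl and Rassf7, bright members not called, differed by -0.79 and 0.60. Of the 28 probed genes, 17 were under 100 on every array. Of 28 epithelial genes, 7 were measured, and Krt19 and the desmosomal protein Pkp2 (2.30 ± 0.57) were called higher, with a list median of 0.45. Jup and Grhl2, among the brightest not called, differed by -1.52 and 0.45, and Esrp2, the other, was at most 189 on any array. Of 18 intermediate filament genes, 8 were measured and Krt19 alone was called (median -0.01).

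Aldh1a1 was accompanied by 1 other gene of retinoid metabolism. Adh7, an alcohol dehydrogenase that oxidises retinol, had signals of 1157 in control 3, 1870.5 in tmTNF 2 and 1230.2 in tmTNF 4, against 107, 49.4 and 318 in the other controls, 138 and 197 in the other tmTNF cultures and 475, 179.6, 174 and 514 in the sTNF cultures. Its difference was 3.08 ± 0.60, equal in both treatments to 2 decimals (3.08 and 3.08). Of 9 measured genes of 21 listed, none but these 2 was called, and the median was 0.43. Its relatives did not pass the filter and did not follow the sides. Aldh1a7 was 4995 in control 3, 46.7 in tmTNF 2 and 32.9 in tmTNF 4, and 0.753 to 105 elsewhere, so it was bright in control 3 only. Aldh1a3 was highest in control 4, a low culture, at 886, and Aldh1a2 reached at most 62.2 on any array.

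Genes of the endothelial list were among the 15 largest negative differences. Gpihbp1, which anchors lipoprotein lipase to capillaries, had signals of 76.6 in control 3, 52.7 in tmTNF 2 and 99.1 in tmTNF 4. On the low side they were 819, 17022 and 843 in the other controls, 6256 and 10806 in the other tmTNF cultures and 84.6, 1196, 1698 and 169.7 in the sTNF cultures. All high arrays were under 100, so Gpihbp1 was at least 47.4-fold lower. The sTNF cultures fell on both sides of 1000, with sTNF 1 and sTNF 4 lowest.

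Cldn5, the claudin of endothelial tight junctions, had signals of 77.8 in control 3, 498 in tmTNF 2 and 290.1 in tmTNF 4, against 1056, 13357 and 5254 in the other controls, 12913 and 21554 in the other tmTNF cultures and 594, 5607, 9553 and 1360.5 in the sTNF cultures. The difference was -5.44 ± 1.11, and nearly the same among controls (-5.49) and tmTNF cultures (-5.40). The high arrays were below every low array, sTNF included. Its printed window held none of the motifs searched.

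Sox18, a SOX factor of vascular development, had signals of 192 in control 3, 94.6 in tmTNF 2 and 229 in tmTNF 4. Elsewhere it was 1335, 15470.0 and 8869 in the other controls, 7314 and 10085 in the other tmTNF cultures and 1405, 5813, 7712 and 2016 in the sTNF cultures. The Sox18 difference was -5.31 ± 0.93. Erg, the ETS factor of endothelium, separated the sides with little spread. Its signals were 140.1 in control 3, 215 in tmTNF 2 and 256 in tmTNF 4, and 2631, 2822 and 3257 in the other controls, 4156 and 3377 in the other tmTNF cultures and 1152, 1936, 2336 and 1262 in the sTNF cultures, with a difference of -4.04 ± 0.25. The highest Erg signal on the high side was 256 and the lowest on the low side 1152, so no array lay between them.

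Of the 24 measured genes on a list of 27 vascular transcription factors, 7 were called lower and 1 higher, with a median of -0.99. Besides Sox18 and Erg, the lower genes were Lmo2, a partner of blood and vessel factors (-4.65 ± 1.00), Sox17 (-3.88 ± 1.40), Hhex (-2.42 ± 0.58), Fli1 (-2.27 ± 0.42) and Mef2c (-2.21 ± 0.49). Gata6, a zinc-finger factor, was called higher (2.10 ± 0.72), more so among controls (3.32) than among tmTNF cultures (1.19). Gata2, which also acts in endothelium, differed by 0.0023 and Tal1 by 0.23.

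Receptors and ligands of vessel growth were lower in part. Of 33 measured genes of 38 listed, 12 were called lower and 2 higher, with a median of -1.69. Kdr, the main VEGF receptor, had signals of 312 in control 3, 349.9 in tmTNF 2 and 564 in tmTNF 4, against 1227, 6086 and 3400.2 in the other controls, 4115 and 8708 in the other tmTNF cultures and 702, 1991, 2149 and 1637 in the sTNF cultures. It differed by -3.48 ± 0.61. The angiopoietin receptor Tek differed by -3.37 ± 0.62 and its relative Tie1 by -2.94 ± 0.49. The endothelin receptor Ednrb differed by -4.93 ± 1.52 and the ephrin Efna1 by -3.04 ± 0.83. The Notch ligand Dll4 was under 100 on all high arrays and at least 7.42-fold lower. Ramp2, which makes the adrenomedullin receptor, differed by -3.40 ± 0.55. The others called lower were Flt4, Pdgfb, Notch4, Jag1 and Ephb4. Vegfd, a VEGF ligand, was called higher (2.89 ± 0.76), as was Edn1, the ligand of Ednrb, although Edn1 was dim outside the sTNF cultures and its bound was 1.71-fold.

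Surface and junction proteins used to recognise endothelium did not all differ alike. Pecam1 (CD31) had signals of 1279.5 in control 3, 3918 in tmTNF 2 and 4767 in tmTNF 4, against 12666, 12775 and 14688 in the other controls, 16874 and 7484 in the other tmTNF cultures and 4955, 8635, 9566 and 8142 in the sTNF cultures. It was called lower (-2.23 ± 0.46), but sTNF 1 was close to tmTNF 4. Nos3, endothelial nitric oxide synthase, had signals of 2045 in control 3, 2210.3 in tmTNF 2 and 2220.5 in tmTNF 4, against 19272, 10009 and 12446 in the other controls, 19138 and 13649 in the other tmTNF cultures and 7328, 8606, 7134 and 9132 in the sTNF cultures, and differed by -2.79 ± 0.22. Emcn, a sialomucin of veins and capillaries, differed by -3.26 ± 0.49 and Icam2 by -2.92 ± 0.44. Cdh5 (VE-cadherin) had signals of 2200.1 in control 3, 2668 in tmTNF 2 and 1374 in tmTNF 4, against 2815, 7305 and 6333 in the other controls, 10330.0 and 5432 in the other tmTNF cultures and 4010.3, 4553, 5699 and 4091 in the sTNF cultures. The Cdh5 difference was -1.63 ± 0.41, under the size required, and Cdh5 stayed above 1000 on every high array.

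The other called genes among the 8 most reduced of the list were Clec14a, a C-type lectin of endothelium (-4.58 ± 0.73), and the adhesion receptor Adgrl4 (-4.04 ± 0.60). Summed signals of the 55 endothelial genes were 59186 to 108803 on the high arrays and 141445 to 366329.7 on the low arrays.

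Of the 22 endothelial identity genes that were not called, 14 overlapped or were opposed in a treatment and 8 separated but by less than 2. The range over the list was from -5.72 (Gpihbp1) to 0.99 (Sox4), and 49 of the 53 were below 0. Its median was -2.52 among controls and -2.01 among tmTNF cultures, and -2.41 with dim genes at their bound. Leaving out control 3, the only high control, leaves the tmTNF difference alone, so the -2.01 it gave is no separate result. Esam, an adhesion molecule of endothelial contacts, differed by -1.43 ± 0.47 and Procr, the protein C receptor, by -0.62 ± 0.50. Eng and Thbd differed by -0.61 and -0.11. Vwf was dim on most arrays (3.11 to 1612) and was not called; its high arrays were all under 100.

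**Figure D2:**
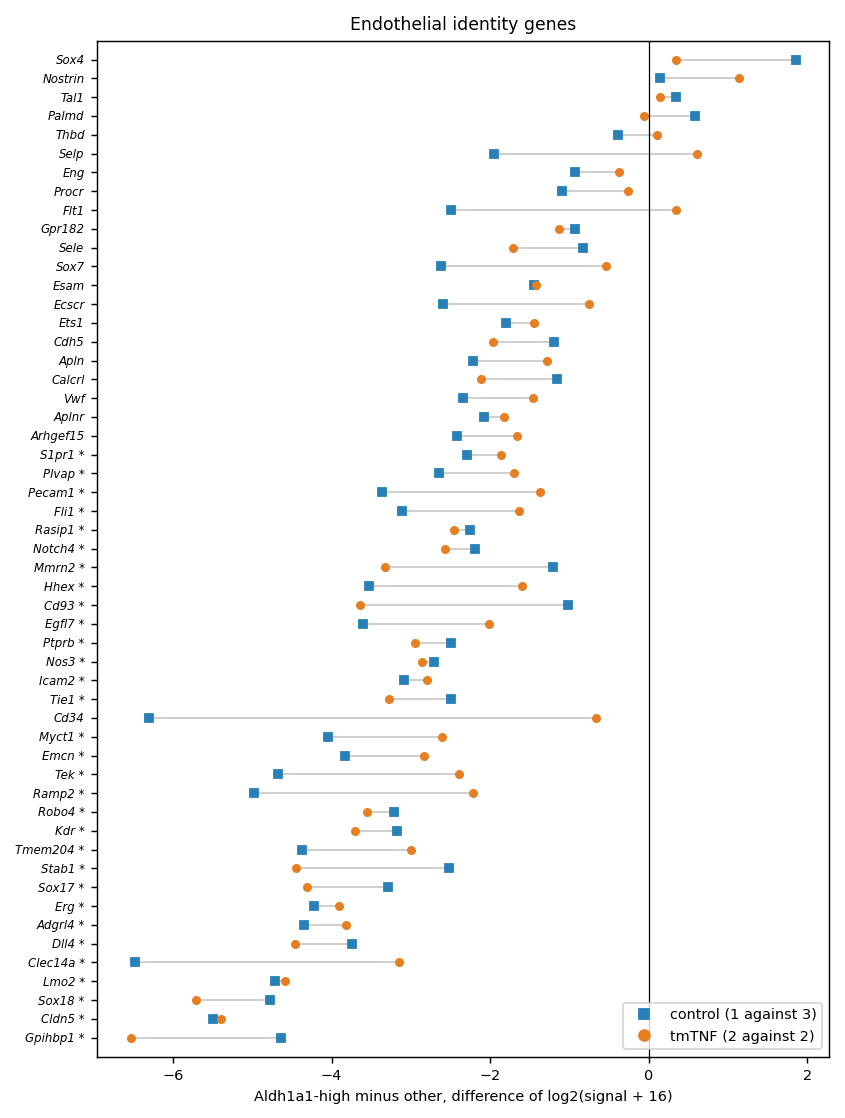
Difference of log2(signal + 16) between Aldh1a1-high and other cultures for the 53 measured endothelial identity genes, among controls (squares, 1 array against 3) and among tmTNF cultures (circles, 2 against 2), ordered by the treatment-adjusted difference. Asterisks mark the 31 genes called lower; the longest gap between the 2 treatments is that of Cd34, at -6.30 and -0.67.

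Others of the 15 largest negative differences were outside that list. Mcam (CD146), an adhesion molecule of endothelium and pericytes, had signals of 215 in control 3, 91.5 in tmTNF 2 and 166 in tmTNF 4, against 4459, 7791 and 8171 in the other controls, 8343 and 9750.4 in the other tmTNF cultures and 1436, 3979, 4811 and 3422 in the sTNF cultures. It differed by -5.51 ± 0.47. Tc2n was at least 12.6-fold lower and Exoc3l2 at least 11.2-fold lower, because all their high arrays were under 100. Fam167b differed by -5.37 ± 0.71, Gimap4 (a GTPase of the GIMAP family) by -5.13 ± 0.54 and Ushbp1 by -5.08 ± 0.74. The organic anion transporter Slco4a1 differed by -4.81 ± 1.10, the Ras exchange factor Rasgrp3 by -4.70 ± 0.52 and Kank3 by -4.65 ± 0.35. Mest, an imprinted gene, had signals of 302 in control 3, 39.2 in tmTNF 2 and 33.2 in tmTNF 4, against 2954, 3277 and 11312 in the other controls, 7789 and 1647 in the other tmTNF cultures and 2997, 3578, 8070.0 and 3992 in the sTNF cultures. It and Peg3 (at least 2.88-fold) were the 2 called lower of 9 measured imprinted growth genes of 14 listed (median -0.89). Of the 249 genes called lower, 72 had all high arrays under 100.

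Fibroblast and matrix genes differed unevenly. Of 22 measured of 36 listed, 3 were called higher and 1 lower, with medians of 1.45 among controls and -0.01 among tmTNF cultures. Pdgfra, a growth factor receptor of mesenchymal cells, differed by 2.68 ± 0.58 and the collagen Col5a1 by 2.50 ± 0.66. Fbln5, an elastic-fibre protein, was called lower (-4.17 ± 1.90), and sTNF 1 and sTNF 4 were also low at 98.4 and 71.4. Vim, S100a4 and Sparc, the brightest not called, differed by -0.10, -0.88 and -1.16. Col1a1 was 818 in control 3, 3.11 in tmTNF 2 and 44.9 in tmTNF 4, and 4.37, 3.57 and 315 in the other controls, 57.5 and 13.6 in the other tmTNF cultures and 429, 31.9, 2.01 and 495 in the sTNF cultures. It was raised in control 3 and in 3 low arrays (control 4, sTNF 1 and sTNF 4), which is not the split by Aldh1a1.

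Dcn (decorin) was above 1000 in the high tmTNF pair only. Its signal was 27.7 in control 3, 3276 in tmTNF 2 and 7271 in tmTNF 4, against 25.4, 7.63 and 16.6 in the other controls, 3.71 and 186 in the other tmTNF cultures and 21.9, 5.88, 25.4 and 20.5 in the sTNF cultures. Its call among controls rests on 27.7 against at most 25.4, both under 100. Itih2 had the same shape, with 108 in control 3, 6806 in tmTNF 2 and 1827 in tmTNF 4, against 6.53 to 38.9 elsewhere. Of the 406 called genes, 5 differed by under 1 among controls and 2 by under 1 among tmTNF cultures. The 5 include Dcn (0.46) but not Itih2 (1.69), so these counts do not cover every uneven gene.

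Of 19 measured basement membrane and matrix genes of 28 listed, 3 were called higher and 3 lower (median -0.47). The higher genes were Lgals3, a galectin (2.67 ± 0.99), Efemp1 and the laminin chain Lamb1 (2.49 ± 1.65). The lower genes were the nidogen Nid2 (at least 5.67-fold), the collagen Col8a1 (-2.63 ± 0.78) and tenascin C, Tnc (-2.42 ± 0.94). Of 17 measured junction genes of 29 listed, 3 were called lower (Cldn5, Cldn15 and the connexin Gja4, at least 3.67-fold) and 0 higher, with a median of -1.04.

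Some genes of inflammation were called, beside 1.49% of all genes tested called higher and 2.36% called lower. Vcam1, a leukocyte adhesion molecule, had signals of 2058 in control 3, 14203 in tmTNF 2 and 15487 in tmTNF 4. It was 188, 81.7 and 296 in the other controls, 311 and 5889.9 in the other tmTNF cultures and 6128, 9054, 19608 and 8639 in the sTNF cultures. Control 3 and the high tmTNF pair each lay above their own group, and the difference was 3.45 ± 0.91. Of 16 measured adhesion and TNF receptor genes of 20 listed, Vcam1 was called higher and Icam2 and Pecam1 lower (median -0.43). Of 20 measured chemokines and cytokines of 32 listed, Il33 (3.92 ± 1.22), Ccl5 (2.08 ± 0.99) and Cxcl1 (2.01 ± 0.89) were called higher (median 0.81). Of 38 measured interferon-stimulated genes of 42 listed, Isg20 (2.64 ± 0.34) and Oas3 (2.17 ± 0.96) were called higher, with a median of 0.48. Of 20 measured NF-kB pathway genes of 22 listed, 0 were called in either direction (median 0.04).

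The lists in this paragraph held at most 1 call each, beside 1.49% of all genes tested called higher and 2.36% called lower. Tgfbr2, a TGF-beta receptor, was the 1 gene called, lower (-2.05 ± 0.62), of 15 measured mesenchymal transition genes of 19 listed (median 0.51). Dkk2 was called lower of 12 measured WNT genes of 29 listed (median -0.10), with a bound of 2.02-fold. Itih2 was the 1 call, higher, among 13 measured protease inhibitors of 24 listed (median 0.22). Of 5 measured lymphatic genes of 10 listed, Flt4 was called lower (-2.51 ± 0.56) with a list median of -0.12. Of 15 measured HOX genes of 52 listed 0 were called, and all 15 were below 0 (median -0.68). Calls were 0 of 7 measured complement genes of 17 listed (median 0.29), 0 of 7 measured X and Y dosage genes of 9 listed (median 0.16) and 0 of 10 measured housekeeping genes of 15 listed (median -0.10).

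The cell cycle list had no call among 44 measured genes of 45 listed (median 0.26). Its median was -0.60 among controls and 0.91 among tmTNF cultures, which are opposite directions. On each array the list is given as the median over its genes of log2(signal + 16) minus the gene's mean over the 12 arrays. That level was -0.62 in control 3, -0.33 in tmTNF 2 and 0.52 in tmTNF 4. It spanned -0.92 to 0.86 in the other controls, so control 3 lay within its group, while the other tmTNF cultures were at -0.58 and -1.09, below both high tmTNF cultures.

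Markers of other cells moved in part with the sides. Summed signals of the 16 probed leukocyte markers were 4753 to 7123 on high arrays and 946 to 28404 on low arrays, so the high arrays lay inside the low range. Ptprc (CD45), which defines leukocytes, reached at most 38.8 on any array. Cd68, a lysosomal marker of macrophages, was 18210.0 in control 1, 6728 in tmTNF 1 and 4295 in tmTNF 3, which are low cultures, and 2285 in control 3, 723 in tmTNF 2 and 63.3 in tmTNF 4. Of 6 measured leukocyte genes of 17 listed, Cd14, a co-receptor for endotoxin, was called higher (3.32 ± 0.70). The leukocyte list's median was -0.96. The bright members Cd68 and Cd53, not called, differed by -2.24 and -2.37, and Lyz2 was under 100 on all high arrays.

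Summed mesothelial markers were 22975 to 25491 on high arrays and 8625 to 19606 on low ones, and summed epithelial markers were 7617 to 13628 and 1469 to 5107. The mesothelial sum holds all 5 markers that describe the rule and the epithelial sum holds Krt19. Without those markers the mesothelial sum was 6383 to 6969.9 on high arrays. It was 11165 to 19286 in low controls, 14047 and 14129.5 in low tmTNF cultures and 5869.6 to 11619 in sTNF cultures. Podxl and Cldn15 made up most of this sum. Their signals were 10187 and 8462 in control 2, where the sum was 19286. In control 3 they were 5898 and 179, where the sum was 6969.9. The sum therefore says little of the other members. The epithelial sum without Krt19 was 1576 to 2134 on high and 1404 to 3223 on low arrays, so the higher sums on the high side came from the markers themselves. Summed fibroblast markers overlapped, with 107753 to 155864 against 103537 to 146295. Summed smooth muscle and pericyte markers overlapped too, with 5354 to 14894 against 9725 to 17339.9. In that list 6 of 18 were measured and Mcam was the 1 call, lower (median -0.20). Tpm1, Smtn and Acta2, not called, differed by 0.85, -1.14 and -0.74. The part of other cells in the differences between the sides was not tested.

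**Figure D3:**
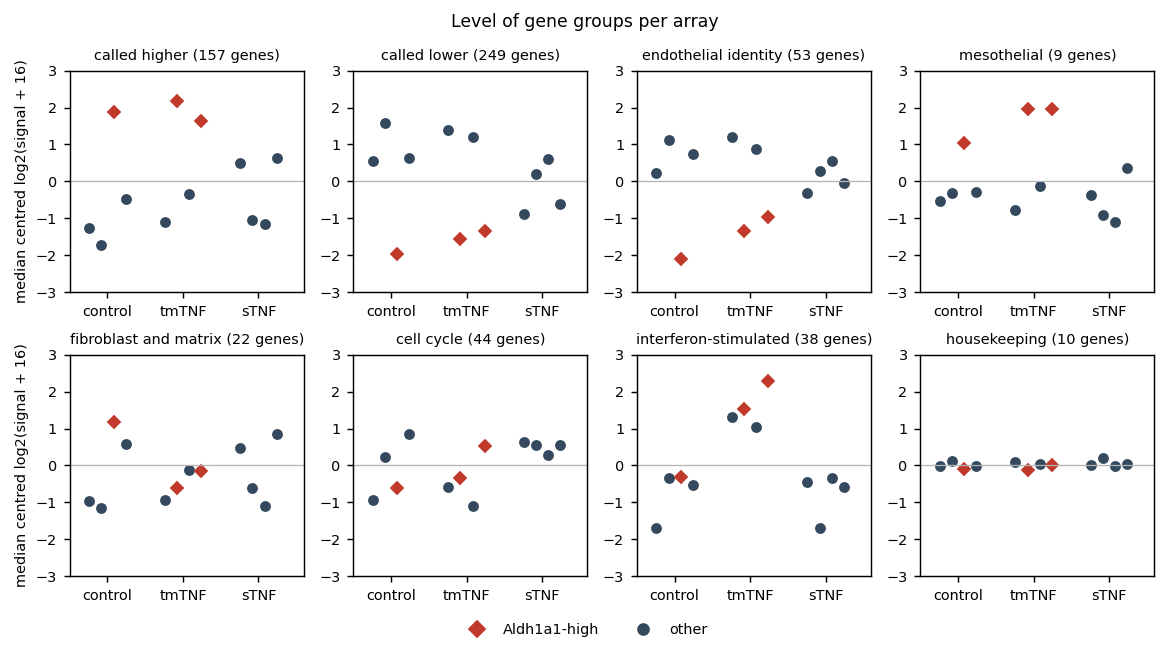
Level of 8 gene groups on each array, as the median over genes of log2(signal + 16) minus the gene's mean over the 12 arrays, grouped by treatment. Diamonds are the 3 Aldh1a1-high cultures, which lie apart for the called and endothelial groups. In the called groups sTNF 1 and sTNF 4 lie between the sides, as does sTNF 2 in the called lower group. The mesothelial group holds the 5 markers of the rule among its 9 genes. The housekeeping group lies between -0.11 and 0.20 on all arrays.

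Most array checks overlapped between the sides. Signals of at least 100 were found for 17652 to 19174 probe sets, and for 17889, 18401 and 18582 on the high arrays. Actb 3' to 5' signal ratios were 1.12 to 1.29 on high and 1.10 to 1.29 on low arrays. The 5' 18S ribosomal RNA control was 121 in control 3, against 128 to 146 in the other controls. It was 235 and 509 in the high tmTNF cultures, against 183 and 318 in the other tmTNF cultures. The 3' 18S control was 423 in control 3, within the 262 to 466 of the other controls. It separated the tmTNF cultures, with 661 and 685 in the high pair against 456 and 467, and was 402 to 719 in sTNF cultures. The Y-linked genes Kdm5d and Eif2s3y were bright on all 4 tmTNF arrays (253 to 560.0 and 497 to 1683) and at most 24.9 and 37.9 elsewhere. The Xist signal was at most 62.5 on every array. The Tnf signal was 13.8, 9.99, 77.2 and 62.1 in tmTNF 1 to 4 and at most 25.7 elsewhere. Whether the probe set lies in the transgene is not given in the sources used here, so Tnf is a weak check of the labels.

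The difference within controls and the difference within tmTNF cultures come from separate arrays, and can be set side by side. Across the 10567 genes they had a Pearson r of 0.477 and a Spearman rho of 0.371, as a description, since genes are not independent replicates, and 62.2% of all genes had the same sign in both. Of 744 genes that differed by at least 2 among controls, 612 had the same sign among tmTNF cultures, and 476 also differed by at least 1 there. High and low arrays did not overlap in the same direction in both treatments for 2298 genes (21.7%), and in opposite directions for 736. The high tmTNF pair correlated with each other at 0.94 across genes, more than either did with control 3 (0.88 and 0.838). Control 3 correlated more with the low cultures sTNF 4 (0.897) and sTNF 1 (0.889) than with either of that pair, and more with low control 4 (0.852) than with tmTNF 4. Likewise tmTNF 4 correlated more with sTNF 1 (0.879) and sTNF 4 (0.878) than with control 3. As both sets of differences follow the same rule on Aldh1a1, the shared direction of the largest genes is partly set by it.

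**Figure D4:**
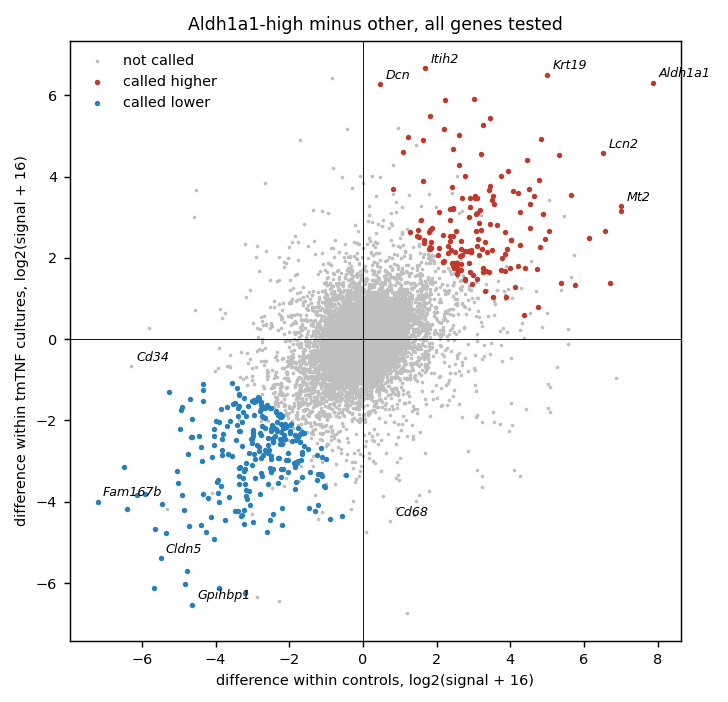
High minus low difference of log2(signal + 16) among controls (horizontal) and among tmTNF cultures (vertical), 1 point per gene for 10567 genes. Red and blue points are the 157 genes called higher and the 249 called lower; Cd34 and Cd68 lie where a difference in one treatment was not matched in the other.

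Whether the difference itself depended on treatment was tested in limma with a term for the high minus low difference in tmTNF cultures minus that in controls. With Benjamini-Hochberg adjustment, 1 of 10567 genes passed 0.05 (0.00946%), and 892 had an unadjusted p under 0.05. The gene was Cd34, a sialomucin of capillary endothelium and progenitor cells. Its signals were 149.6 in control 3, 5680.2 in tmTNF 2 and 10502 in tmTNF 4, against 13518, 15486 and 10525 in the other controls, 15452 and 9794 in the other tmTNF cultures and 11910.0, 13971, 11159 and 7683 in the sTNF cultures. Cd34 was low in control 3 alone, and the high tmTNF pair lay near or within their group. The difference was -6.30 among controls and -0.67 among tmTNF cultures, a gap of 5.63 ± 0.56 (SE, limma adjusted p = 0.0108). Among controls the difference rests on 1 array, control 3, whose value the model fits exactly. The sides were chosen on these arrays, so the p-values of this test may be too small. Without tmTNF 4 no gene passed and the Cd34 adjusted p was 0.0502 in limma. Without control 1, control 2, tmTNF 1 or tmTNF 3 the count was 5, 3, 2 or 4, and over the leave-one-out fits the Cd34 adjusted p in limma was 0.0107 to 0.0502.

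Among genes with a large gap that did not pass, Ramp2 was -4.97 among controls and -2.21 among tmTNF cultures and S100a4 was -2.77 among controls and 0.54 among tmTNF cultures, each with a limma adjusted p of 0.137 for the gap. Dcn was 0.46 among controls and 6.28 among tmTNF cultures (limma adjusted p = 0.25) and Itih2 was 1.69 among controls and 6.68 among tmTNF cultures (limma adjusted p = 0.19). A p above the threshold does not show that these differences were alike, with 1 array against 3 on one side of the comparison.

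**Figure D5:**
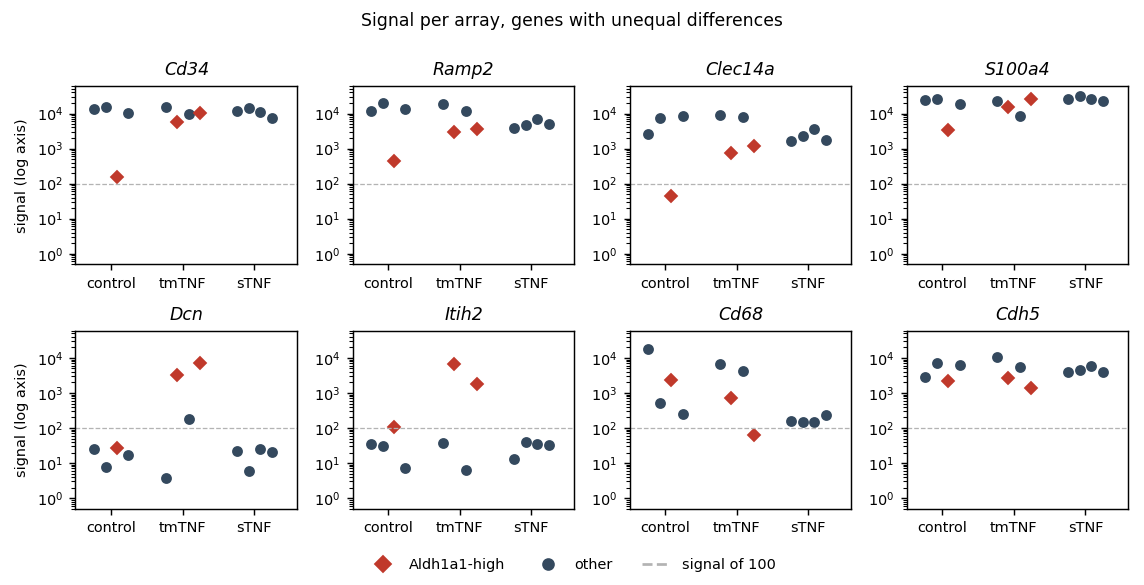
Signal per array on a log axis for 8 genes, grouped by treatment, with a dashed line at a signal of 100. Diamonds are the Aldh1a1-high cultures; Cd34 is at 149.6 in control 3 and at 5680.2 and 10502 in the high tmTNF pair, while Dcn is raised in that pair and not in control 3.

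The 4 sTNF cultures had Aldh1a1 signals of at most 67.3 but were not alike in the genes called between the sides. The median level of the 157 higher genes was 0.49 in sTNF 1 and 0.64 in sTNF 4, against -1.05 in sTNF 2 and -1.15 in sTNF 3. High cultures were at 1.63 to 2.17, and low controls and tmTNF cultures at -1.71 to -0.34. For the 249 lower genes, sTNF 1 and sTNF 4 were at -0.89 and -0.62, and sTNF 2 and sTNF 3 at 0.21 and 0.62. High cultures were at -1.95 to -1.34, and low controls and tmTNF cultures at 0.56 to 1.59. On both measures sTNF 1 and sTNF 4 lay between the high cultures and the low controls and tmTNF cultures. In the lower genes sTNF 2 did too, nearer to the low cultures. A threshold on Aldh1a1 did not separate sTNF 1 and sTNF 4 from sTNF 2 and sTNF 3. Control 4, sTNF 1 and sTNF 4 were also the low arrays with raised Col1a1.

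With the side in the model, the comparison of sTNF with control cultures gave more calls. All 4 sTNF cultures counted as low there, although sTNF 1 and sTNF 4 lay between the sides in the genes called. In the genes called lower, sTNF 2 did too. For such genes, the part of that position in the sTNF difference was not tested. In limma, 44 genes passed an adjusted p of 0.05 (0.416%; 27 higher, 17 lower), against 4 without the side (0.0379%), and all 4 were among the 44. The median residual SD over genes was 0.455 with treatment alone and 0.419 with the side added. The side was chosen on these arrays and narrows the residual spread, so these p-values may be too small. The count was 6 without control 2, 749 without control 4, 25 without tmTNF 2, and 12, 11 and 14 without sTNF 1, sTNF 2 and sTNF 4. Without all 3 high arrays it was 21, of which 17 were among the 44.

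Edn1, the vasoconstrictor endothelin, rose. Its signal was 1170.0, 2618, 4204 and 618 in sTNF cultures and 3.92 to 49.1 in controls, all under 100, so the means of the 2 groups differed at least 16.8-fold with control signals counted as 100 (limma adjusted p = 0.000949), higher in 4 of 4. The Vcam1 difference was 5.73 ± 0.75 (limma adjusted p = 0.0118), higher in 4 of 4, and did not pass without the side (limma adjusted p = 0.213) or without control 2 (limma adjusted p = 0.0556). Rgs16, a regulator of G protein signalling, rose by 4.12 ± 0.53 (limma adjusted p = 0.0118). F2rl3, the thrombin receptor PAR4, fell with the side in the model. Its signal was 169, 146, 102 and 187 in sTNF cultures, 1047, 1381 and 603 in the low controls and 72.1 in control 3. The F2rl3 difference was -2.68 ± 0.31 (limma adjusted p = 0.00718), against -1.71 without the side (limma adjusted p = 0.539). The F2rl3 signal of control 3 was below that of all 4 sTNF cultures. Sh2d3c, a signalling adaptor, differed by -1.95 ± 0.26 with the side (limma adjusted p = 0.0118) and -1.14 without it (limma adjusted p = 0.623). It did not pass without control 2 (limma adjusted p = 0.0556).

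Of the 44 genes, 12 were also called between the sides (7 lower and 5 higher there), beside 3.84% of all genes tested called between the sides in either direction. Both comparisons use the same controls. Among the other sTNF rises named by rule, Prss23, Ankrd1, Ccn1, Rnd1 and Tnfaip3 (the NF-kB inhibitor A20) rose by 3.86 ± 0.54, 3.81 ± 0.63, 3.60 ± 0.52, 3.35 ± 0.61 and 3.13 ± 0.52. Among the falls, Zfp467, Vav3, Kank3 and Ppp1r16b changed by -2.28 ± 0.33, -2.25 ± 0.36, -2.13 ± 0.32 and -2.09 ± 0.35. Aatk and Irf8 were under 100 in all sTNF cultures. With those signals counted as 100, the means of the 2 groups differed at least 3.13-fold and 1.92-fold. These bounds have no term for the side. The limma adjusted p-values of these 11 genes were 0.0162 to 0.0443 with the side in the model. Without the side none of the 11 passed (limma adjusted p = 0.106 to 0.792). All 11 differences were then smaller, and that of Kank3 was -0.96. Leaving out 1 array ended some of these calls. Prss23 did not pass without control 2 or sTNF 2 (limma adjusted p = 0.0552 to 0.0556). Ankrd1 did not pass without control 2, tmTNF 2, sTNF 1, sTNF 2 or sTNF 4 (limma adjusted p = 0.0574 to 0.11). Ccn1 did not pass without control 2 or sTNF 2 (limma adjusted p = 0.0552 to 0.0614). Rnd1 did not pass without control 2, control 3, tmTNF 1, tmTNF 2, tmTNF 3, tmTNF 4, sTNF 1, sTNF 2, sTNF 3 or sTNF 4 (limma adjusted p = 0.0546 to 0.131). Tnfaip3 did not pass without control 2, control 3, tmTNF 2, sTNF 1, sTNF 2, sTNF 3 or sTNF 4 (limma adjusted p = 0.0537 to 0.0887). Aatk did not pass without control 2, sTNF 1, sTNF 2 or sTNF 4 (limma adjusted p = 0.0592 to 0.0902). Zfp467 did not pass without control 2, sTNF 1, sTNF 2 or sTNF 4 (limma adjusted p = 0.0552 to 0.0715). Vav3 did not pass without control 2, sTNF 1, sTNF 2, sTNF 3 or sTNF 4 (limma adjusted p = 0.0579 to 0.0852). Irf8 did not pass without control 2, sTNF 1 or sTNF 2 (limma adjusted p = 0.0614 to 0.0902). Kank3 did not pass without control 2, sTNF 1, sTNF 2 or sTNF 4 (limma adjusted p = 0.0552 to 0.0902). Ppp1r16b did not pass without control 1, control 2, control 3, sTNF 1, sTNF 2 or sTNF 4 (limma adjusted p = 0.058 to 0.112). The sTNF minus control median over the endothelial identity list was -0.53 with 0 of its 53 members called, and over chemokines and cytokines it was 2.08.

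The comparison of tmTNF with control cultures gave similar counts with and without the side. With the side in the model 27 genes passed in limma (0.256%; 26 higher, 1 lower), against 20 without it (0.189%), all of which were among the 27. The count was 9 without control 3, 9 without tmTNF 3, 16 without tmTNF 4, 56 without tmTNF 1, and 1 without the 3 high arrays, which leaves 2 tmTNF cultures and was not among the 27. The same caution on p-values holds.

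Zbp1, an interferon-induced nucleic acid sensor, had signals of 496, 2539, 2819 and 8831 in tmTNF cultures and 19, 8 and 19 in the low controls, with 179 in control 3. It rose by 5.05 ± 0.60 (limma adjusted p = 0.00595). The fold bounds that follow compare the means of the 2 groups, with signals of the dimmer group counted as 100. They have no term for the side, while the p-values beside them come from the model with it. Icam1, an adhesion molecule for leukocytes, was under 100 in all controls and rose at least 8.07-fold (limma adjusted p = 0.0087), but did not pass without control 3 (limma adjusted p = 0.114) or without tmTNF 3 (limma adjusted p = 0.0551). Ifi44l, Klhl4 and C1ra, also under 100 in all controls, rose at least 4.96-fold, 6.94-fold and 5.86-fold, and Ddx60 rose by 3.17 ± 0.41. Il13ra1, an interleukin-13 receptor chain, was under 100 in all tmTNF cultures and fell at least 8.98-fold, in 4 of 4 (limma adjusted p = 0.00595; 0.0951 without control 3). The Y-linked Eif2s3y and Kdm5d passed too (at least 8.36-fold and 3.85-fold), so the source of the cells and tmTNF cannot be told apart in this comparison. Isg20 was the 1 gene called both between the sides and here, at 2.40 ± 0.31 (limma adjusted p = 0.00703). The tmTNF minus control median over the endothelial identity list was 0.48 with the side in the model, with 0 members called, and over interferon-stimulated genes it was 2.22, with 10 of 38 called higher. Leaving out 1 array ended some of these calls. Ifi44l did not pass without control 3 (limma adjusted p = 0.0888). Kdm5d did not pass without control 3 or tmTNF 3 (limma adjusted p = 0.0512 to 0.0713). Ddx60 did not pass without control 3 or tmTNF 3 (limma adjusted p = 0.062 to 0.0777).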

How the data were processed

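Gene expression was measured on 12 Affymetrix arrays of 45101 probe sets. The deposited values are linear signal intensities, 1 per probe set and array, made by the authors with MAS5 per the submitters' processing notes; its version and settings are not given in the sources used here. Each deposited array had a 2% trimmed mean of 1000. Detection flags and scanner files were not used, and the number of arrays limits the precision.

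After leaving out 64 control probe sets, arrays were set to a 2% trimmed mean of 500 and signals used as log2(signal + 16). Of the probe sets, 34958 had 1 gene symbol, 932 several and 9211 none in the platform annotation, and 34754 were matched to RefSeq names (GRCm38.p6). Probe sets with 1 symbol and a signal of 100 on at least 3 arrays were kept, and the brightest represented each of 10567 genes; fold changes on this scale understate changes of dim genes. Of 406 called genes, 183 had another probe set past the filter, and in 1 (Ddr1) it had the opposite sign.

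Models were fitted in limma 3.58.1 (R 4.3.3) by lmFit with treatment and side, and treatment terms were tested two-sided with eBayes (trend) and Benjamini-Hochberg adjustment. The code was tested on simulated data. The side itself was not tested. The cultures, the 27 gene lists and the rule for named genes were chosen with earlier results of these data known. The rule took the 5 markers, the 15 largest called differences per direction (gene models without a name passed over), up to 8 called members per list, for 6 cell type lists the 3 brightest not called, fixed endothelial, epithelial, sex-linked and leukocyte genes, and the 8 largest changes per direction of each treatment test. A few others (Eng, Thbd, Gata2, Tal1, Sox4, Aldh1a2, Aldh1a3, Aldh1a7) were named after their values were seen. Alternatives were quantile and same-median scaling, a pseudocount of 1 or 64, the filter dropped or set at 250, the mean of probe sets, each array left out, no treatment covariate, no sTNF arrays, sizes of 1 and 3, no side, and no high arrays.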

Additional observations from a re-analysis of the deposited data

Results flagged for a closer look

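Within each treatment group of 4 arrays, the gap between the most extreme array and its nearest neighbour, as a share of the group's range, exceeded Dixon's 95% critical value in 25 of 438 tests of named genes and lists. Chance alone flags about 1 in 20 groups. Control 3 gave 16 of the 25, and since it was chosen for its Aldh1a1 signal, its ratios describe the rule.

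Control 3 stood high for Aldh1a1 (0.91), Krt19 (0.898), Amy1 (0.897) and the level of the mesothelial list (0.85). It stood low for Pecam1 (0.939), Erg (0.93), Sh2d3c (0.917), Cd34 (0.915), Fli1 (0.855), Ramp2 (0.853), Emcn (0.852), Gimap4 (0.841), Kank3 (0.839), Rasgrp3 (0.836), S100a4 (0.833) and Mcam (0.831). Among the other controls, control 2 stood high for Dkk2 (0.951), and control 1 stood low for the interferon-stimulated list (0.84).

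In tmTNF cultures, tmTNF 1 stood low for Cxcl1 (0.862) and tmTNF 3 stood high for Gja4 (0.906). In sTNF cultures, sTNF 4 stood high for Kdm5d (0.947) and Cd68 (0.922), sTNF 2 for Epcam (0.863) and sTNF 3 for Zfp467 (0.858), and sTNF 1 stood low for Tek (0.874). The Kdm5d and Epcam signals of these sTNF arrays were under 100.

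The high minus low difference of Cd34 was -6.30 among controls and -0.67 among tmTNF cultures, a gap of 5.63 on the log2 scale. Cd34 was flagged for this gap. The difference among controls rests on 1 array, the only high control, whose value the model fits exactly. The sides were also chosen on these arrays. The test of the gap therefore cannot settle whether the Cd34 difference depended on treatment.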

How the results depend on the processing

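The named called genes had been selected for a difference of at least 2 without overlap, and the sides were held fixed under the alternatives. Their signs were therefore largely set in advance, and nothing is read from the following count. Of 1678 values of the 81 named called genes under the alternatives, 1677 kept their sign. The exception was Edn1, whose high minus low difference was -0.107 without the treatment covariate, where the sTNF arrays, in which Edn1 was bright, enter the low side directly. Thresholds of 500 and 2000 on Aldh1a1 moved no array. Without control replicate 3 there is no high control, so called counts, the correlation and the interaction have no value there. No paired analysis was possible because replicate numbers follow accession order and pair nothing.

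The counts called higher and lower were 407 and 631 at a size of at least 1, and 66 and 85 at a size of at least 3, and 156 were lower without the treatment covariate. Leaving out 1 array gave 143 to 223 higher and 229 to 289 lower. The endothelial identity median ran from -2.54 to -2.01 and the correlation between treatments from 0.355 to 0.539, and without the filter the correlation was 0.369.

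The tmTNF count of 27 was 41 with a pseudocount of 64, 1 without the Aldh1a1-high arrays, and 9 to 56 with 1 array left out. The sTNF count of 44 was 4 with no side in the model, 21 without the Aldh1a1-high arrays, and 6 to 749 with 1 array left out. The interaction count of 1 was 2 with quantile normalization, 3 with a pseudocount of 1, 3 with a pseudocount of 64, 17 without the filter, 2 with a filter at 250, and 0 to 5 with 1 array left out. The cause of these changes was not tested. The single high control limits every difference among controls, and signals under 100 limit folds to bounds.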
